A study of Mus musculus with 12 samples.

Results

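The genes described here were 37 named marker genes of astrocytes, picked by symbol from general knowledge of the cell type and matched to the gene symbols of the count table. All 37 were among its 24060 genes, and all 37 were among the 14354 genes that passed the filter on low counts. The samples were white matter of the brain of male mice of the genotype Tie2-Cre:Rpl22-HA (RiboTag), in which Cre recombinase under the Tie2 (Tek) promoter, active in endothelial cells and in part of the blood lineage, makes cells carry Rpl22, a ribosomal protein, with a hemagglutinin (HA) epitope. From each mouse an input library (RNA of the whole tissue) and an IP library (RNA that came down with the HA-tagged ribosomes) were made. The sample numbers in the labels pair them. 3 mice (animals 489, 555 and 556) had eaten a control fat diet (CFD) with 10% of its energy from fat and 3 mice (animals 516, 517 and 676) a high fat diet (HFD) with 60%, which gave 4 groups of 3 libraries. The labels give neither the age of these mice nor the weeks on the diet. No group lacked Cre or the tag.

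Astrocytes are the glial cells that take up glutamate and potassium around synapses and axons, supply metabolites, and cover the outer wall of brain vessels with endfeet rich in the water channel Aqp4. In white matter they carry much of the intermediate filament protein Gfap and are joined to each other and to oligodendrocytes by gap junctions. Their endfeet lie against the endothelium and pericytes. Whether this placement has a part in the astrocyte values of the IP libraries was not tested. Of the 37 genes, textbook knowledge also puts Vim, Id3, Mt1, Mt2 and Sparcl1 in vascular cells, Glul and S100b in oligodendrocytes, and Cst3 in microglia. This list of shared genes is not complete, and other members may be expressed in other cells too.

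Values are CPM (the counts of a gene scaled to a fixed library total, with TMM factors, as edgeR gives them), given in the order of the animals above. Total counts per library were 19567186 to 33660708. The 37 genes together took 0.637% to 1.32% of the counts of a library. Each library had a count for 36 or 37 of them, and 4 of the 12 libraries held a single member at 3 counts or fewer. The precursor ribosomal RNA gene Rn45s took 38.7% to 42.3% of the counts in CFD IP, 17.1% to 19.1% in HFD IP and 6.34% to 14.2% in the inputs, so that the IP libraries of the diets differed in this share. The input of animal 676 stood apart with 133 counts of Xist, although all mice are stated to be male. The other libraries held 0 to 7 counts of Xist, and the IP of animal 676 held 0. That input also had the most genes detected, 16427. For 8 of the 37 genes it held the lowest CPM of the 12 libraries, which bears on the HFD input values below. The cause was not tested. The summed CPM of 10 endothelial markers (Cldn5, Pecam1, Flt1, Egfl7, Esam, Tek, Cdh5, Kdr, Slco1a4 and Abcb1a) was 6.72, 4.01 and 213 in CFD IP, 67.1, 29.2 and 11.1 in HFD IP, 15.5, 14.4 and 21.3 in CFD input and 18.6, 9.99 and 44.0 in HFD input. It was higher in IP than in the input of the same animal in 3 of 6 animals, and Tek, whose promoter drives the Cre, had 0 counts in 3 of the 6 IP libraries.

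The 3 defining astrocyte markers were present in all 12 libraries. Aqp4 had 58.8, 61.0 and 76.2 CPM in CFD input and 75.2, 109.7 and 28.5 CPM in CFD IP, and the groups overlapped. Gfap had 93.0, 74.4 and 125 CPM in CFD input, and all 3 CFD IP libraries were higher, with 155, 199 and 177 CPM. Aldh1l1, an enzyme of folate metabolism used as a marker of the whole astrocyte population, had 17.7, 49.5 and 27.0 CPM in CFD input and 26.3, 14.8 and 21.2 CPM in CFD IP. In bulk samples, fewer cells of a type and less RNA per cell cannot be told apart, which holds for every value below.

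Levels of different genes were compared as CPM per kilobase of the gene length that the deposited FPKM and counts imply. Over the 6 input libraries of whole white matter, the secreted protease inhibitor Cst3 had the highest median, 404 CPM per kilobase (range 326 to 472), followed by the glutamate transporter Slc1a2 with 311 (274 to 419), Ndrg2 with 256 (159.9 to 377) and glutamine synthetase, Glul, with 244 (173 to 289). Each of these ranges overlapped that of the next gene in this order, while that of Cst3 lay above that of Glul. The lowest medians were those of the amino acid transporter Slc7a10, 1.04 CPM per kilobase (0.149 to 2.0), and the bone morphogenetic protein antagonist Chrdl1, 0.327 (0.0317 to 0.801). The defining markers Gfap, Aqp4 and Aldh1l1 stood at rank 15, 24 and 29 of the 37, with medians of 30.0, 12.2 and 5.53 CPM per kilobase. The range of Gfap did not overlap that of Aqp4, while Aqp4 and Aldh1l1 overlapped. These ranks hold among the 37 genes only. In the same libraries, 6 neuron markers (Snap25, Rbfox3, Syt1, Tubb3, Nefl and Slc17a7) were summed. Their summed CPM was 7681, 12201 and 10673 in CFD input and 9952, 9895 and 7269 in HFD input. That of 5 oligodendrocyte markers, given below, was lower in each of these libraries.

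**Figure D1:**
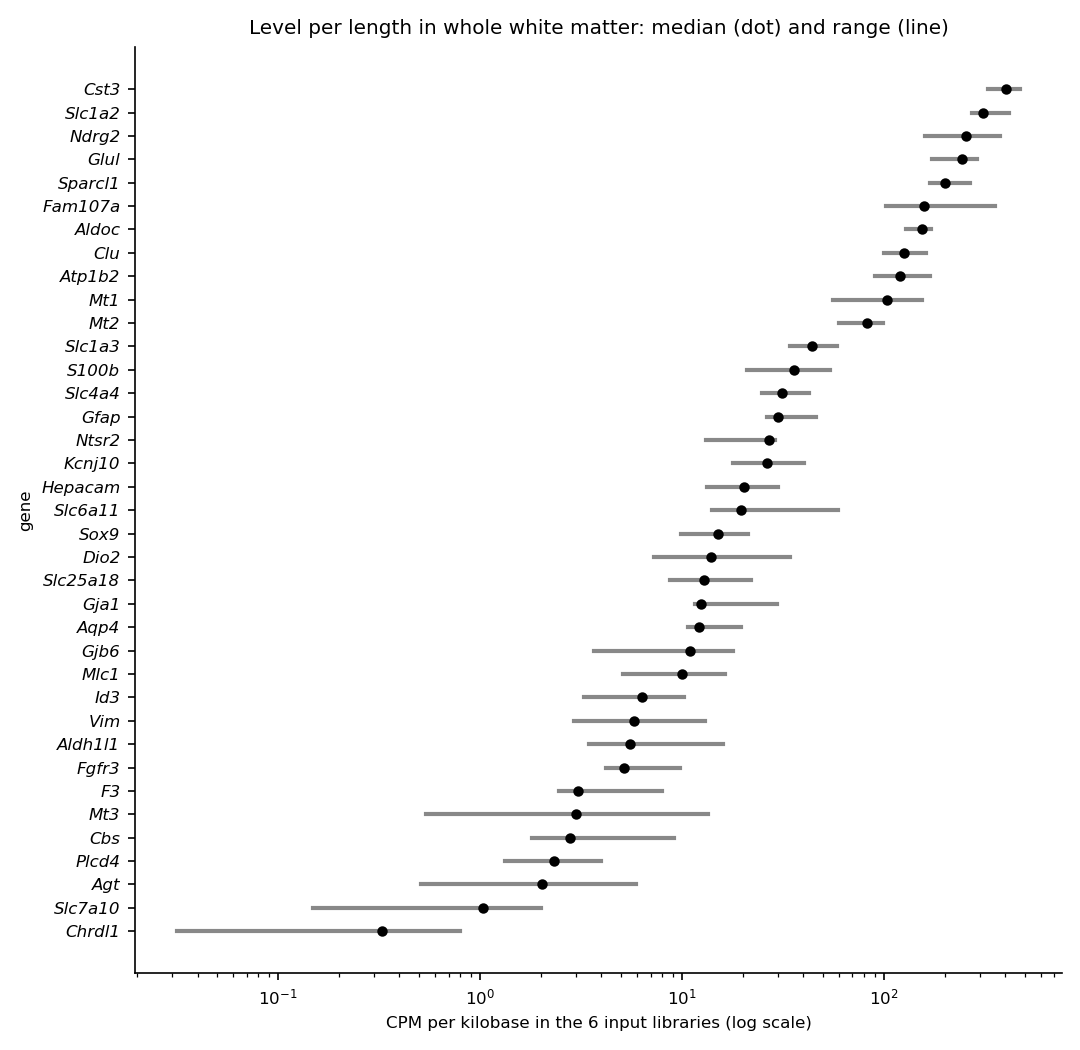
CPM per kilobase of the 37 genes (rows) in the 6 input libraries, on a log axis, with the median as a dot and the range as a line. The medians run from 0.327 for Chrdl1 to 404 for Cst3, and neighbours in the order mostly overlap.

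The next comparison asked how HFD and CFD differ in the whole tissue. In HFD input, 28 of the 37 genes had a fitted level below CFD input and 9 above it (24.3%), where 49.7% of all tested genes lay above. Their median log2 fold change was -0.33, and that of all genes -0.00. In 7 genes all 3 HFD inputs lay below all 3 CFD inputs (Atp1b2, Slc1a2, Slc1a3, Aldh1l1, Dio2, Ndrg2 and Sparcl1, 18.9% of the members against 4.33% of all tested genes), and in 0 genes they lay above (6.05% of all). The summed CPM of the 37 genes was 9531, 10828 and 10854 in CFD input and 7823, 7508 and 7200.1 in HFD input, so that the groups did not overlap. Without Slc1a2 the sum was 5710, 6369 and 6006 in CFD input and 4644, 4335 and 3824 in HFD input, again without overlap. A sum without overlap was not particular to the astrocyte genes. That of 5 oligodendrocyte markers, given below, did not overlap between the diets in input either. Without Mbp, its highest gene, the oligodendrocyte sum overlapped. The sum of 6 neuron markers overlapped as well. The edgeR quasi-likelihood test with Benjamini-Hochberg adjustment called 0 members at an adjusted p under 0.1 (0% of all genes). At an unadjusted p under 0.05 it gave 4 members, all lower in HFD (Atp1b2, Dio2, Ndrg2 and Fam107a), where 2.03% of all genes passed. DESeq2 called 1 member, Dio2 (adjusted p = 0.0506), and 0.225% of the genes to which it gave an adjusted p. The likelihood ratio test of edgeR, the fit with no filter on low counts and the fit with the animal as a block each called 0 members.

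The same comparison in the IP fraction gave a mixed pattern. In HFD IP, 16 of the 37 genes had a fitted level above CFD IP (43.2%, against 51.3% of all genes) and 21 below it. The median over the members was -0.20 on the log2 scale, against 0.03 for all genes. All 3 HFD IP libraries lay above all 3 CFD IP libraries for Gja1, Mlc1 and Cbs (8.11% of the members, 5.94% of all genes). They lay below for Atp1b2, Gfap, Aldoc, Dio2, Fam107a and Sox9 (16.2% of the members, 4.66% of all genes). The edgeR test called 0 members (0.0557% of all genes), with 6 at an unadjusted p under 0.05 against 10.9% of all genes, namely Gja1, Mlc1 and Cbs higher and Gfap, Dio2 and Fam107a lower in HFD. DESeq2 called 5 of these, all but Cbs (5.79% of the genes with an adjusted p, the base of every DESeq2 share given here), while edgeR's likelihood ratio test (1.58%) and the fit with no filter on low counts (1.20%) each called 1, Fam107a. Without animal 489 the quasi-likelihood test called Fam107a too, with an adjusted p of 0.0233, where 0.134% of all genes were called. With the animal as a block 0 members were called.

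For markers of other cell types in the same comparison, the counts stand beside the 51.3% of all genes with a fitted level above CFD IP. In HFD IP the fitted level lay above CFD IP for 4 of 5 markers of oligodendrocyte precursors (median log2 fold change 0.69), 4 of 5 tested pericyte markers (0.49), 6 of 10 endothelial (0.71), 3 of 3 tested ependymal (1.10), 4 of 6 microglia (0.51), 3 of 5 oligodendrocyte (0.44) and 5 of 6 neuron markers (0.05). At an unadjusted p under 0.05, where 10.9% of all genes passed, the precursor genes Pdgfra (log2 fold change of 2.28) and Lnx1 (2.23) were higher in HFD IP. So were the pericyte gene Rgs5 (3.67) and the endothelial gene Slco1a4 (5.52), while the endothelial gene Egfl7 (-4.99) was lower. The edgeR test called 0 of these. Slco1a4 had 1.14, 0.145 and 0 CPM in CFD IP and 57.8, 0.0661 and 1.52 in HFD IP. Egfl7 had 1.91, 1.21 and 205 CPM in CFD IP and 1.84, 0.0330 and 4.63 in HFD IP. A single library carried each of these endothelial changes, that of animal 516 for Slco1a4 and that of animal 556 for Egfl7. The part of these markers in the values of Gja1, Mlc1, Gfap and Fam107a was not tested.

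**Figure D2:**
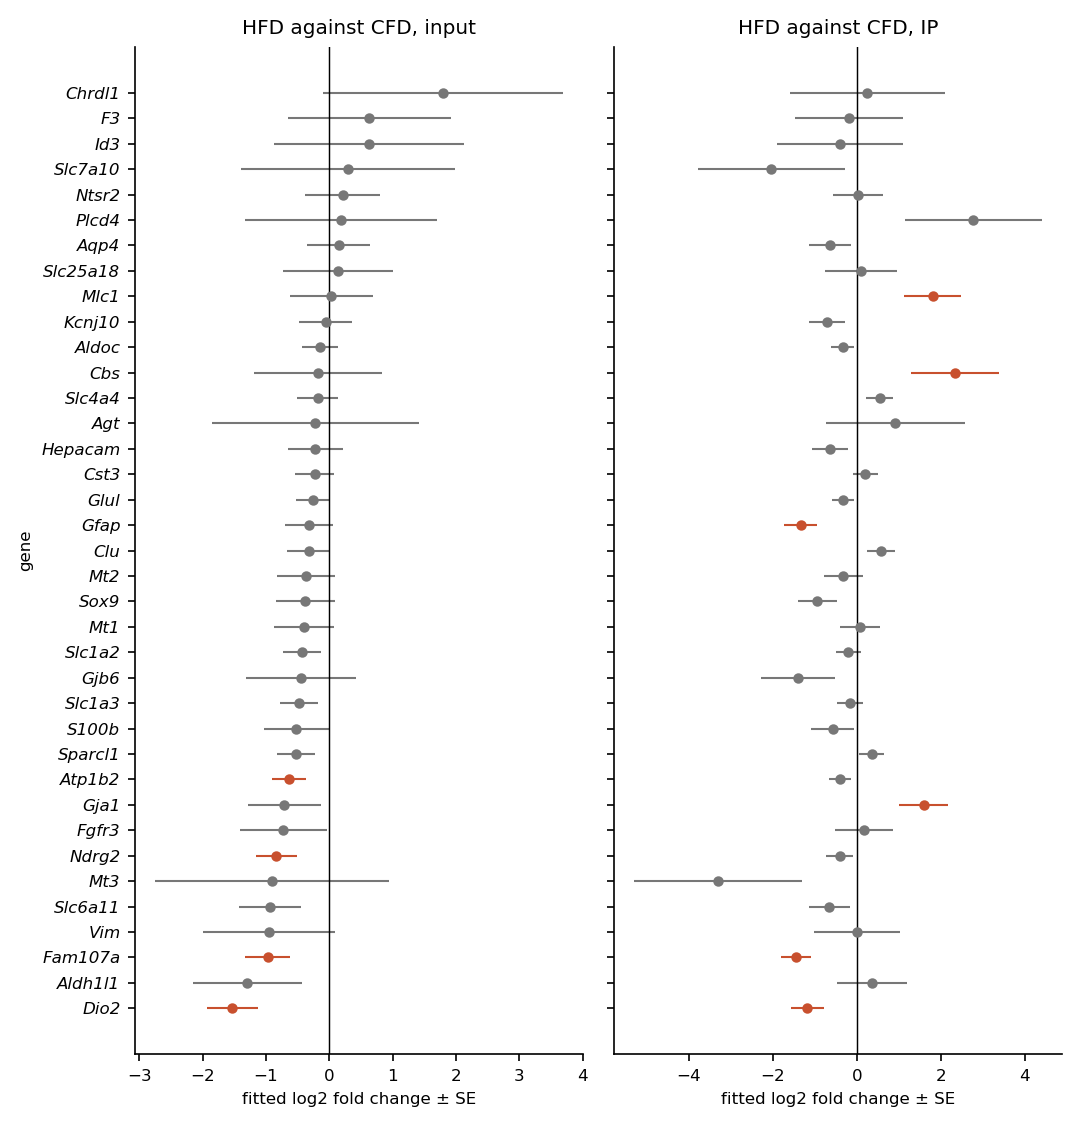
Fitted log2 fold change of HFD against CFD for the 37 genes (rows) in input (left) and IP (right), with bars of 1 SE and orange for an unadjusted p under 0.05. In input 28 genes lie left of 0, and Dio2 is lowest at -1.53. In IP 21 lie left of 0.

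The comparison of IP with input asked which genes the pull-down held more or less of than the tissue it came from. Over both diets, 27 of the 37 genes had a fitted level above input (73.0%, against 48.4% of all genes), and the median of their log2 fold changes was 0.34 against -0.03 for all genes. This was so for 26 in CFD (49.1% of all genes) and 26 in HFD (49.4% of all genes), with medians of 0.28 and 0.47. Within an animal, between 21 and 29 of the 37 genes were higher in IP, and the median log2 ratio of the members was 0.14 to 0.64, while that of all genes was -0.17 to 0. The summed CPM of the 37 genes in IP was 9264, 15226 and 17513 in CFD and 15046, 12654 and 8002 in HFD, higher than in the input of the same animal in 5 of 6 animals. Since Slc1a2 held a large share of the sum, it was also taken without that gene, and was then higher in IP in 6 of 6 animals.

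In the edgeR quasi-likelihood test 0 members were called over both diets (2.35% of all genes), in CFD (0.188%) or in HFD (0.0139%). At an unadjusted p under 0.05 there were 8 over both diets, all higher in IP (13.9% of all genes), 5 in CFD (11.8%) and 5 in HFD (6.51%). With the animal as a block, which pairs the IP and input of a mouse, 3 members were called over both diets (3.14% of all genes), Slc1a2 (adjusted p = 0.0416), Ndrg2 (0.0681) and Kcnj10 (0.0897). DESeq2 called Mt2, Ndrg2 and Slc1a2 over both diets (7.36%) and Gja1 as lower in IP in CFD (6.03%). In HFD it gave an adjusted p to 13 of the members and called Ndrg2 and Clu (12.6% of the 1274 genes with an adjusted p). Over both diets the likelihood ratio test called Mt2 (5.43% of all genes), and the fit with no filter on low counts Slc1a2, Ndrg2, Kcnj10 and Slc6a11 (3.99%). Without animal 676 the quasi-likelihood test called Slc1a2 (adjusted p = 0.0490) and Ndrg2 (0.0494), where 2.98% of all genes were called, and without animal 489 Slc1a2 (0.0757), where 0.649% were. Within a diet and for the interaction these other fits of edgeR called 0 members. Glul, Aldoc, Ndrg2 and Mt2 were higher in IP in all 6 animals (10.8% of the members, 4.09% of all genes), and Slc25a18 and S100b lower in all 6 (5.41%, 4.15% of all genes). The highest ratio of S100b was -0.02, and with the RLE scaling it was below 0 in 5 of 6 animals.

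**Figure D3:**
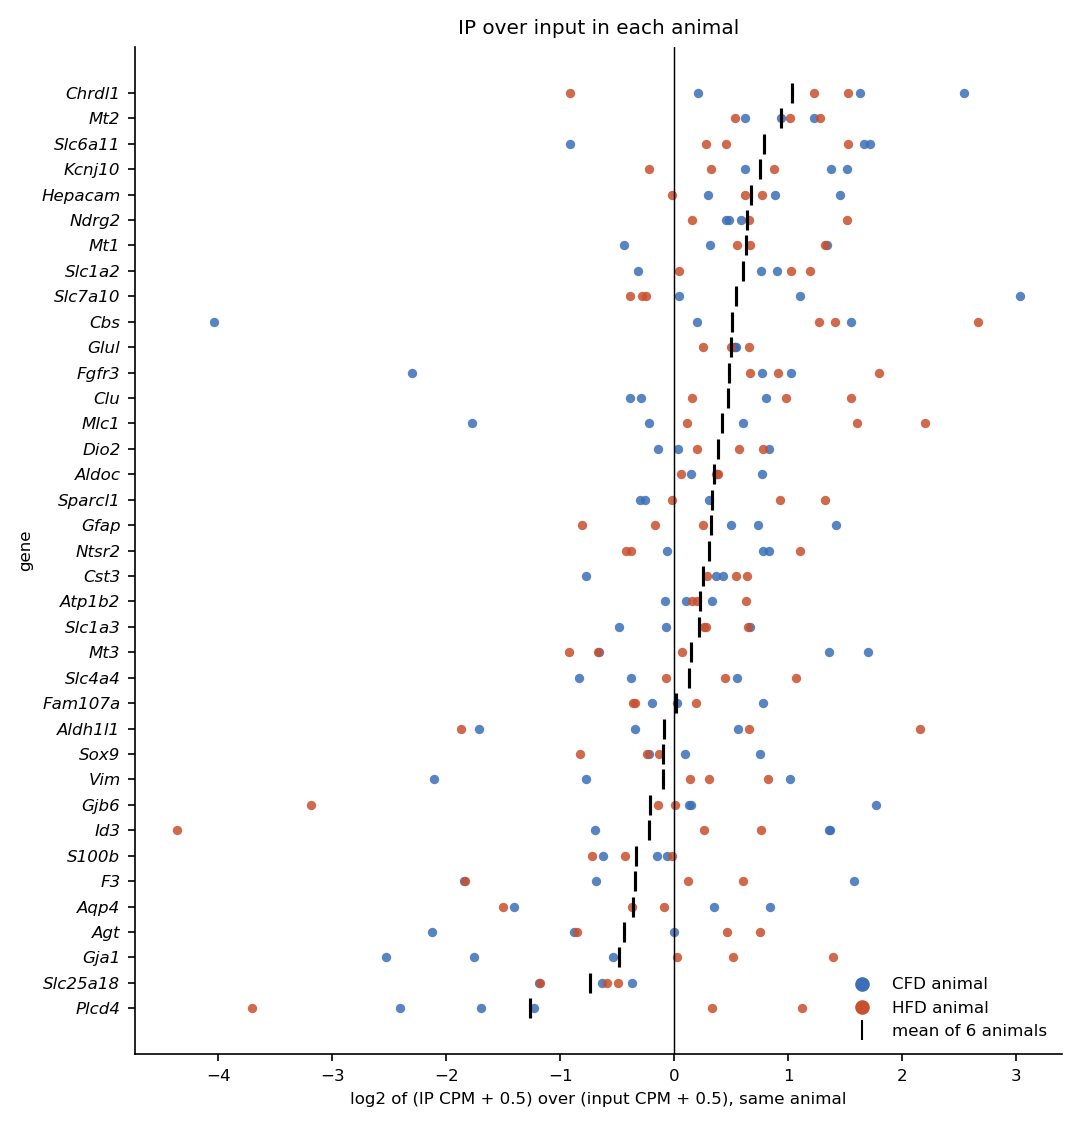
Log2 ratio of IP over input in each of the 6 animals for the 37 genes (rows, ordered by the mean), with CFD animals in blue, HFD animals in orange and the mean as a black tick. Mt2, Ndrg2, Glul and Aldoc have all 6 points right of 0, and Gja1 has its 3 CFD animals left and its 3 HFD animals right of it.

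The interaction of diet and fraction, which tests whether the IP over input ratio differs between the diets, gave 20 of 37 genes above 0 (54.1%, against 52.2% of all genes). The edgeR test called 0 members (0% of all genes), as did DESeq2 (0.877%), and 1 member, Gja1, passed an unadjusted p under 0.05 (5.36% of all genes). Gja1 and Slc7a10 were also the members whose ratio lay on opposite sides of 0 in the diets, with all 3 animals of each on its side (5.41%, against 2.45% of all genes).

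**Figure D4:**
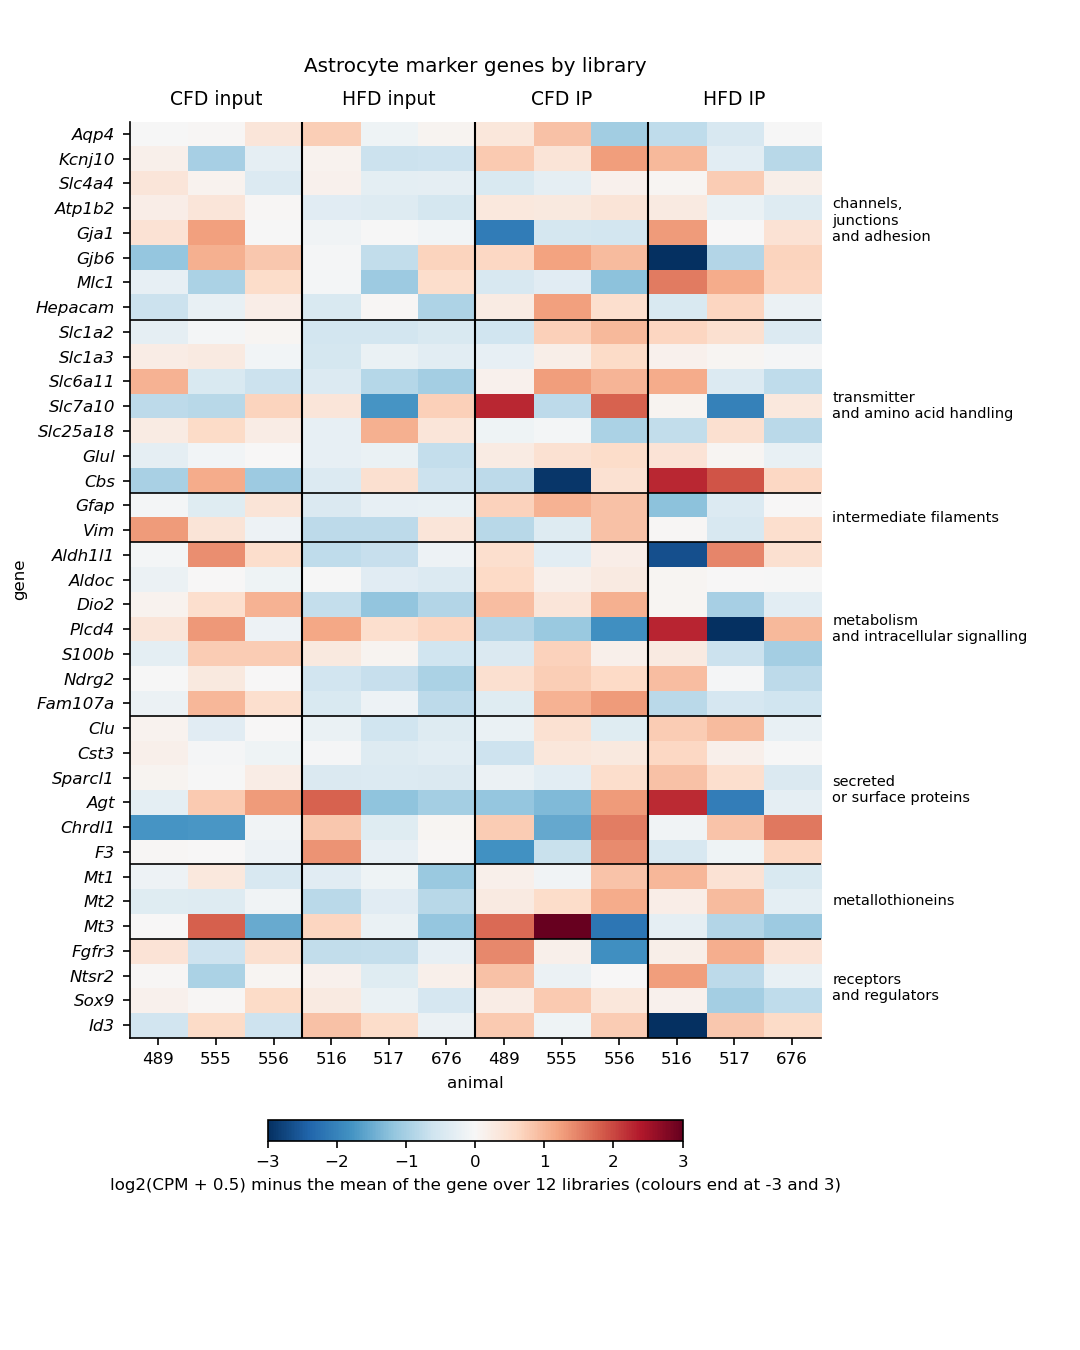
Log2(CPM + 0.5) of the 37 genes (rows, grouped by role) in the 12 libraries (columns, named by animal), less the mean of the gene over the libraries, from blue (lower) to red (higher). Dio2 and Ndrg2 are blue across HFD input, while the genes of low level, such as Mt3, Plcd4 and Id3, vary most within a group.

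Among the membrane channels, junctions and adhesion proteins, Gja1, the connexin that forms most astrocyte gap junctions, had 8.74, 26.9 and 26.4 CPM in CFD IP and 95.8, 39.4 and 53.1 CPM in HFD IP. Every HFD IP library was above every CFD IP library (log2 fold change of 1.60, SE 0.58, adjusted p = 0.363). In input it had 52.7, 92.0 and 38.5 CPM in CFD and 36.1, 38.8 and 37.1 CPM in HFD, where the HFD libraries were close together and the groups overlapped. The log2 ratios of IP over input were -2.53, -1.76 and -0.53 in CFD and 1.39, 0.02 and 0.51 in HFD, and the interaction had a log2 fold change of 2.31, SE 0.82, adjusted p = 0.829. In CFD alone, IP against input gave a log2 fold change of -1.56, SE 0.58, adjusted p = 0.315. The other astrocyte connexin, Gjb6, ranged from 1.56 to 43.8 CPM over the 12 libraries.

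Mlc1 and Hepacam encode membrane proteins that bind each other at astrocyte junctions. Mlc1 had 18.6, 20.5 and 10.8 CPM in CFD IP against 77.6, 56.5 and 40.9 in HFD IP, without overlap (log2 fold change of 1.81, SE 0.68, adjusted p = 0.365), and 21.8, 13.3 and 38.2 in CFD input against 25.1, 11.9 and 37.8 in HFD input, where the groups overlapped. Hepacam had 94.9, 187 and 113 CPM in CFD IP and 57.5, 126 and 71.0 in HFD IP, and its IP exceeded the paired input in 5 of 6 animals (log2 fold change of 0.70, SE 0.31, adjusted p = 0.314 over both diets). So the partners differed in the sign of their fitted difference between the diets in IP, and that of Hepacam was smaller than the spread of its libraries.

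The inward rectifier potassium channel Kcnj10, which clears potassium, had 217, 97.5 and 161 CPM in CFD input and 335, 254 and 461 CPM in CFD IP. All 3 CFD IP libraries lay above the CFD inputs (log2 fold change of 1.14, SE 0.42, adjusted p = 0.314). In HFD the values were 207, 124 and 126 in input and 380.5, 155 and 108 in IP, and these overlapped. Atp1b2, a beta subunit of the sodium pump, had 449, 503 and 402 CPM in CFD input and 306, 296 and 268 CPM in HFD input, without overlap (log2 fold change of -0.64, SE 0.27, adjusted p = 1.0). Its IP libraries, 483, 476 and 508 CPM in CFD and 473, 340.4 and 299 in HFD, did not overlap either, although the highest HFD value lay just under the lowest CFD value. Aqp4 did not separate the diets, with 99.8, 54.7 and 62.8 CPM in HFD input (log2 fold change of 0.15, SE 0.50, adjusted p = 1.0) and 35.0, 42.3 and 59.2 CPM in HFD IP (log2 fold change of -0.65, SE 0.50, adjusted p = 0.635). Its IP over input ratio was above 0 in 2 of 6 animals (log2 fold change of -0.27, SE 0.35, adjusted p = 0.802). The sodium bicarbonate cotransporter Slc4a4 ranged from 177 to 419 CPM over all libraries, with 3 ratios on either side of 0.

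Of the genes of transmitter and amino acid handling, Slc1a2, the main glutamate transporter of astrocytes, had 3820.5, 4458 and 4848 CPM in CFD input and 3179, 3173 and 3376 CPM in HFD input. The HFD inputs were close together and all below the CFD inputs, but the gene did not pass the test, also without adjustment. In IP it had 3071, 7559 and 9072 CPM in CFD and 7250.5, 6468 and 3485 CPM in HFD, a wider spread in which the groups overlapped. Its IP exceeded the paired input in each animal but 489 (log2 fold change of 0.70, SE 0.22, adjusted p = 0.122 over both diets). The second glutamate transporter, Slc1a3, had 241, 247 and 193 CPM in CFD input and 144, 179.5 and 164 in HFD input, again without overlap and without passing the test. The GABA transporter Slc6a11 was higher in IP in 5 of 6 animals (log2 fold change of 0.83, SE 0.35, adjusted p = 0.279 over both diets).

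Glul, which turns glutamate into glutamine and is also found in oligodendrocytes, had the most even ratio of the 37 genes. Per animal, the log2 ratio of Glul in IP over input came to 0.54, 0.52 and 0.54 in CFD and 0.65, 0.25 and 0.50 in HFD, from 659.5, 759 and 810.3 CPM in CFD input and 673, 699.6 and 486 CPM in HFD input (log2 fold change of 0.50, SE 0.18, adjusted p = 0.194 over both diets). Slc25a18, a mitochondrial glutamate carrier, went the other way, with ratios of -0.37, -0.63 and -1.19 in CFD and -0.50, -0.59 and -1.17 in HFD. Cbs, an enzyme that uses homocysteine, had 5.79, 0.918 and 14.3 CPM in CFD IP and 50.9, 39.6 and 16.2 CPM in HFD IP (log2 fold change of 2.34, SE 1.06, adjusted p = 0.424). The ratio of Slc7a10 lay above 0 in the CFD animals and below 0 in the HFD animals, at levels of 0.165 to 12.4 CPM over the 12 libraries.

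The intermediate filament genes were Gfap and Vim. Gfap had 155, 199 and 177 CPM in CFD IP and 40.8, 71.9 and 97.7 CPM in HFD IP, and all 3 HFD libraries lay below the CFD libraries (log2 fold change of -1.34, SE 0.39, adjusted p = 0.299). Its inputs overlapped, with 93.0, 74.4 and 125 CPM in CFD and 71.9, 80.7 and 82.0 CPM in HFD (log2 fold change of -0.32, SE 0.38, adjusted p = 1.0). IP against input gave a log2 fold change of 0.86, SE 0.39, adjusted p = 0.390 in CFD and a log2 fold change of -0.16, SE 0.38, adjusted p = 0.984 in HFD. The difference between those, the interaction, was -1.02 with SE 0.54 and an adjusted p of 0.896. Vim, which vascular cells also express, ranged from 5.17 to 23.9 CPM, both of these in animal 489.

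Among the genes of metabolism and intracellular signalling, Dio2, the deiodinase with which astrocytes turn thyroxine into the active thyroid hormone, separated the diets in both fractions. It had 104, 139 and 200.3 CPM in CFD input and 58.8, 42.2 and 52.3 CPM in HFD input (log2 fold change of -1.53, SE 0.40, adjusted p = 1.0). In IP it had 185, 126 and 205 CPM in CFD and 101, 48.6 and 78.0 CPM in HFD (log2 fold change of -1.18, SE 0.39, adjusted p = 0.335). All 6 HFD libraries, from 3 animals, lay below all 6 CFD libraries, which held for 16 of all tested genes (0.111%) and for no other member, and 0 members had the opposite order (0.216% of all genes). This count over both fractions was chosen after the values were seen.

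The promoter of Dio2 is shown because its transcript was the member that separated the diets in every library. It is the RefSeq sequence of GRCm38.p6 from 250 bases before to 50 bases after the annotated start, chr12:90738989-90739288, minus strand, with the letters TGACGTCA (the cyclic AMP response element) in capitals. That motif, which reads the same on both strands, was in 1.79% of 32851 promoters of this length and in 1 of the 31 members that have a promoter in the table. A match is a description of the letters only.
Dio2: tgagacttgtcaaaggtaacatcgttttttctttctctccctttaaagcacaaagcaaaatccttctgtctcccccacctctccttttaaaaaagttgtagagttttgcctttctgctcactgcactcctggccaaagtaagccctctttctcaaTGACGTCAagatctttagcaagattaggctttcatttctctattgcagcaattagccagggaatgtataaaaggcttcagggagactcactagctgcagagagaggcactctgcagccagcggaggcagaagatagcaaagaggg

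Fam107a, which encodes an actin-associated protein, had 434, 1143 and 1359 CPM in CFD IP and 318, 394 and 368 CPM in HFD IP. The HFD libraries were close together and all below the CFD libraries, of which that of animal 489 was much lower than the others (log2 fold change of -1.44, SE 0.36, adjusted p = 0.255). In input it had 496, 1121 and 793 CPM in CFD and 408, 501 and 321 CPM in HFD, and a single HFD value lay above the lowest CFD value (log2 fold change of -0.97, SE 0.36, adjusted p = 1.0). Ndrg2 had 661, 813 and 666 CPM in CFD input and 442, 409.8 and 345 CPM in HFD input, without overlap (log2 fold change of -0.84, SE 0.32, adjusted p = 1.0). In IP it had 924, 1113 and 998 CPM in CFD and 1268, 648 and 384 CPM in HFD, where the HFD animals covered the whole CFD range. Per animal, its log2 IP over input ratio came to 0.48, 0.45 and 0.58 in CFD and 1.52, 0.66 and 0.16 in HFD (log2 fold change of 0.72, SE 0.23, adjusted p = 0.132 over both diets).

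Aldh1l1 had 10.7, 11.2 and 16.4 CPM in HFD input, each below the CFD inputs (log2 fold change of -1.29, SE 0.85, adjusted p = 1.0), and 2.57, 51.6 and 26.1 CPM in HFD IP, a range that took in all CFD IP values (log2 fold change of 0.36, SE 0.84, adjusted p = 0.901). The glycolytic enzyme Aldoc was among the least variable genes, with 439, 323 and 349 CPM in CFD IP and 301, 296 and 287 CPM in HFD IP, and higher in IP than in input in each animal. The calcium-binding protein S100b had 25.7 to 90.0 CPM over the libraries. Plcd4, a phospholipase C, was at 0 counts in the HFD IP of animal 517, which allows up to 3 counts, and at 22.1 CPM in that of animal 516.

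**Figure D5:**
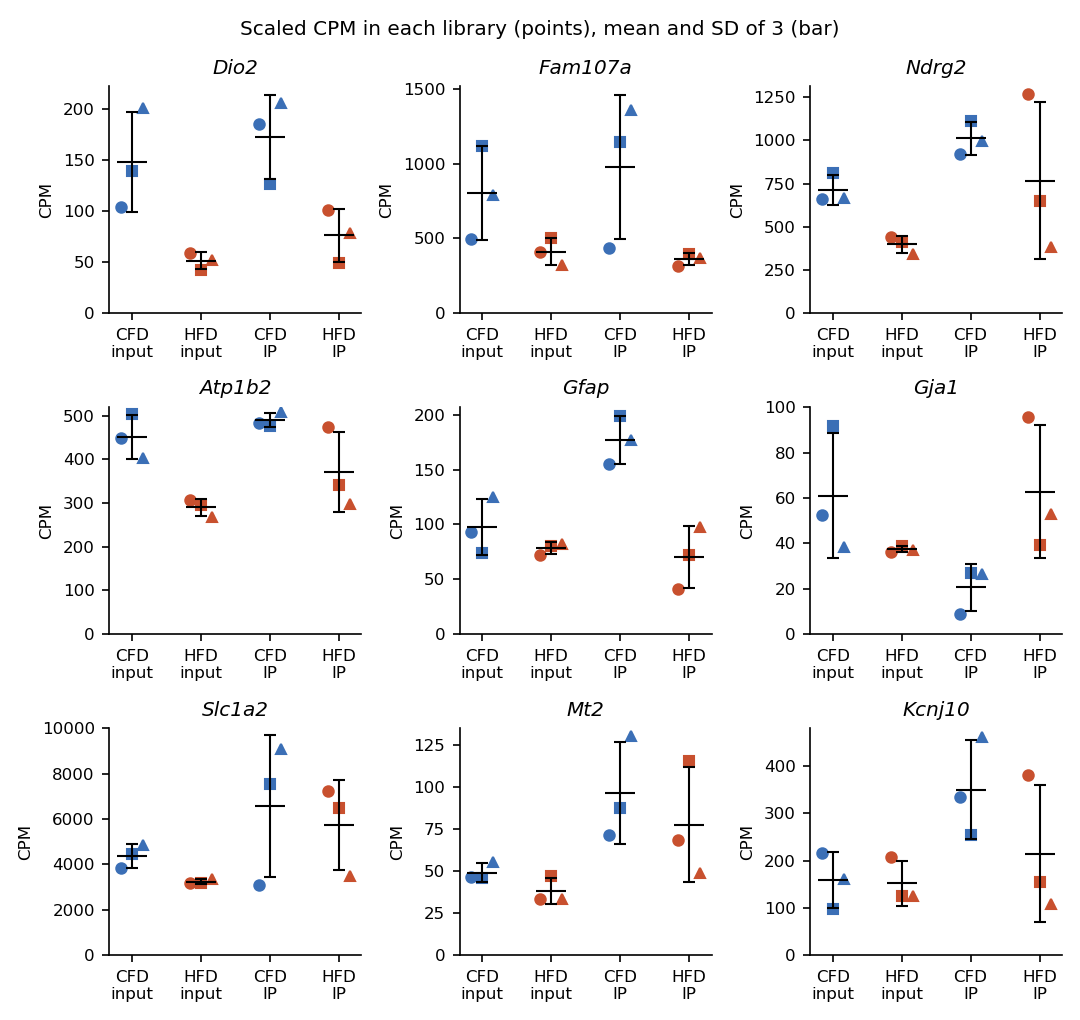
CPM of 9 of the genes in each library, with CFD in blue, HFD in orange, circles, squares and triangles for animals 489, 555 and 556 (CFD) or 516, 517 and 676 (HFD), and bars for mean and SD of 3. Dio2 is lower in every HFD library than in every CFD library, and Gja1 is lowest in CFD IP.

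The genes of secreted or surface proteins gave no call between the diets. Clu, the chaperone clusterin, had 237, 181 and 210.5 CPM in HFD input and 469, 533 and 235 CPM in HFD IP, higher in IP in each HFD animal (log2 fold change of 0.98, SE 0.34, adjusted p = 0.585). In CFD its log2 ratios of IP over input were -0.29, 0.81 and -0.38. Sparcl1, a matrix protein that vascular cells also make, had 761, 714 and 833 CPM in CFD input and 529, 539.7 and 535 CPM in HFD input, where the HFD libraries differed by less than any other member of that group and lay below CFD. In HFD IP it had 1323, 1026 and 529 CPM (log2 fold change of 0.84, SE 0.31, adjusted p = 0.623 against HFD input). In CFD IP it had 638, 581 and 1030 CPM, and its ratio of IP over input was above 0 in 3 of 6 animals. Cst3 ranged from 205 to 486 CPM over all libraries, and its ratio of IP over input was above 0 in 5 of 6 animals. Agt (angiotensinogen), Chrdl1 and F3 (tissue factor) reached at most 15.2, 5.94 and 15.8 CPM, and their groups overlapped in both fractions.

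The metallothioneins Mt1 and Mt2 bind zinc and copper and lie side by side on chromosome 8. Mt2 had 46.3, 45.5 and 55.2 CPM in CFD input, 33.5, 47.1 and 33.3 in HFD input, 71.5, 87.6 and 129.9 in CFD IP and 68.2, 115 and 48.6 in HFD IP. It was higher in IP in each animal, with log2 ratios of 0.62, 0.94 and 1.23 in CFD and 1.01, 1.28 and 0.54 in HFD (log2 fold change of 1.0, SE 0.33, adjusted p = 0.145 over both diets). Mt1 was higher in IP in 5 of 6 animals, with ratios of 0.31, -0.44 and 1.34 in CFD and 1.33, 0.55 and 0.66 in HFD. Mt3 was at 0 counts in the CFD IP of animal 556 and at 19.3 CPM in that of animal 555. Vascular cells express Mt1 and Mt2 too, and which cells these transcripts came from was not tested.

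The promoters of the neighbours Mt1 (chr8:94178839-94179138) and Mt2 (chr8:94172368-94172667), both on the plus strand of GRCm38.p6 and from RefSeq, are shown because both genes had more RNA in IP than in input in at least 5 animals. Capitals mark the core of the metal response element, TGCGCNC or TGCACNC, on either strand. The forms differ only in a G or an A in the middle, and no marked core overlaps another. Mt1 has 3 cores and Mt2 has 4, while 25.7% of the 32851 promoters hold at least 1 (15.4% the form with G and 12.6% the form with A). Of the 31 members with a promoter, 13 hold at least 1, among them Dio2, whose core is not marked in the sequence above.
Mt1: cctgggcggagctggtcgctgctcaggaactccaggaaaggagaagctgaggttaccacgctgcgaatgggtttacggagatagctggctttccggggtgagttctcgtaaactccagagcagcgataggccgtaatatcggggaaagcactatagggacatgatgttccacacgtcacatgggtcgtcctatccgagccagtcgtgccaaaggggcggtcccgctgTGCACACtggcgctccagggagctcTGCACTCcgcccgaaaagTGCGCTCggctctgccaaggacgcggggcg
Mt2: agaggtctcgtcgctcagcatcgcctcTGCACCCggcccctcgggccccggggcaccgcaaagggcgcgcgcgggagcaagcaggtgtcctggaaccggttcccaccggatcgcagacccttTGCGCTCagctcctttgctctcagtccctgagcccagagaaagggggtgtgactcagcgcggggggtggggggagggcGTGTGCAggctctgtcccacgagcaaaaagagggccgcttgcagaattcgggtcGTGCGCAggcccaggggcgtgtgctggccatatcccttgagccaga

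Of the receptors and regulators, the transcription factor Sox9, which marks the nuclei of adult astrocytes, had 68.7, 103 and 75.5 CPM in CFD IP and 64.7, 29.0 and 35.0 CPM in HFD IP, without overlap. It did not pass the test. In input, 64.3, 60.7 and 88.2 CPM in CFD and 70.9, 51.7 and 41.3 CPM in HFD overlapped. The growth factor receptor Fgfr3 ranged from 8.02 to 81.6 CPM and the neurotensin receptor Ntsr2 from 20.3 to 95.5 CPM, and the diets overlapped in both fractions. Id3, a regulator without a DNA-binding domain of its own, was at 0 counts in the HFD IP of animal 516 and at 9.31 and 7.83 CPM in the others of that group.

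The spread between libraries differed among the members. Within a group, the range of log2(CPM + 0.5) had a median over the 37 genes of 0.95 in CFD input, 0.64 in HFD input, 0.97 in CFD IP and 1.24 in HFD IP, against 1.34, 1.07, 1.75 and 1.70 over all tested genes. The smallest range was 0.03, for Sparcl1 in HFD input, and the largest 5.50, for Plcd4 in HFD IP. More than a 4-fold range was seen for 7 members in each IP group, 3 in CFD input and 2 in HFD input.

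A second list of 20 astrocyte genes outside the 37 (among them Acsbg1, Lcat and Grin2c) gave the following counts. In HFD input 13 of 20 had a fitted level below CFD input (median log2 fold change -0.28), where 49.7% of all genes lay above. In HFD IP 12 of 20 lay above CFD IP (median 0.45), against 51.3% of all genes. Over both diets 11 of 20 lay above input (median 0.24), against 48.4% of all genes. The edgeR test called 0 of the 20 in each of the 6 comparisons. At an unadjusted p under 0.05 there were 0 for the diet in input and over both diets, and 2 for the diet in IP, with Lcat, an enzyme of cholesterol esterification, as higher (log2 fold change of 3.78, SE 1.28, adjusted p = 0.345) and Grin2c, a glutamate receptor subunit, as lower (log2 fold change of -2.91, SE 1.24, adjusted p = 0.404), of which DESeq2 called Lcat. These 2 of 20 stand beside the 10.9% of all genes at that level, and the DESeq2 call beside 5.79%. Lcat had 2.74, 2.66 and 0.112 CPM in CFD IP and 52.6, 13.2 and 10.1 in HFD IP. Grin2c had 0.776, 99.2 and 60.6 CPM in CFD IP and 0.659, 5.42 and 15.3 in HFD IP, and these overlapped. IP against input gave 2 in CFD (Lcat and Grin2c, 11.8% of all genes), 1 in HFD (Acot11, 6.51%) and the interaction 1 (Lcat, 5.36%). DESeq2 called Lcat in CFD as well (6.03%), as lower in IP. There edgeR gave it a log2 fold change of -2.92 and an adjusted p of 0.368. Of 35 genes of reactive astrocytes (the lists often called pan-reactive, A1 and A2), 23 were tested and both edgeR and DESeq2 called 0 of them in each of the 6 comparisons. In HFD IP 15 of the 23 lay above CFD IP (median log2 fold change 0.41), against 51.3% of all genes. At an unadjusted p under 0.05 there was 1, Gbp2 (10.9% of all genes), with 11.6, 0 and 0 CPM in HFD IP. In HFD input 11 of 23 lay above (49.7% of all genes), with 0 at that level (2.03%). Over both diets 12 of 23 lay above input (48.4% of all genes). At that level there were 2 (13.9% of all genes), Serpina3n and Timp1, both higher in IP. Timp1 was at 0 CPM in every input but that of animal 676 (0.782). In IP it had 0, 0 and 1.74 CPM in CFD and 0.173, 8.12 and 0.0305 in HFD. The summed CPM of the 11 pan-reactive genes was 93.3, 7.48 and 19.2 in CFD input and 93.3, 97.5 and 61.5 in CFD IP, and 24.5, 27.0 and 35.4 in HFD input and 65.7, 59.1 and 68.6 in HFD IP, higher in IP in 6 of 6 animals, although in animal 489 by a margin that the rounded values do not show. Serpina3n made up 55.9% to 96.3% of this sum, and without it the sum was higher in IP in 4 of 6 animals. Of the 7 pan-reactive genes tested, 4 had a fitted level above input over both diets.

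Markers of other cell types moved along with some of these counts. The summed CPM of 5 oligodendrocyte markers (Mbp, Mog, Mag, Cnp and Mobp) was 2573, 2655 and 2363 in CFD input, 2195, 2332 and 1911 in HFD input, 5262, 2739 and 3071 in CFD IP and 4069, 4183 and 2096 in HFD IP, higher in IP in 6 of 6 animals. In input the diets did not overlap in this sum. Mbp made up 61.3% to 85.4% of it. Without Mbp animal 555 was lower in IP, and the diets overlapped in input. The sum of 6 neuron markers was higher in IP in 1 of 6 animals, but Snap25 made up 53.0% to 83.4% of it, and without Snap25 it was higher in IP in 6 of 6. These sums without their highest gene were taken after the values were seen. The sum was higher in IP in 3 animals for 6 microglia markers and in 2 for 6 pericyte markers. Without the highest gene of each of these lists it was so in 2 and 1. For 4 blood genes the sum was higher in IP in 0 animals. Alas2 made up 87.4% to 100% of it, and 2 of the 4 had no count in any library. Without Alas2 the blood sum was 0 in every IP library, so it could not be higher there. For 5 markers of oligodendrocyte precursors the sum was higher in IP in 4 animals, and in 2 without Sox10. All 6 neuron markers had a fitted level in HFD input below CFD input (median log2 fold change -0.28), as did 3 of 5 oligodendrocyte markers (median -0.11), beside the 28 of 37 astrocyte genes. Over both diets edgeR called Mbp (log2 fold change of 0.73, SE 0.21, adjusted p = 0.0879) and the neuron gene Slc17a7 (log2 fold change of 1.01, SE 0.23, adjusted p = 0.0444) as higher in IP. The part of these cell types, of the Rn45s share and of the endothelial level in the astrocyte values was not tested.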

How the data were processed

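RNA of 12 libraries from 6 mice was analysed from a table of counts per gene. Per the labels and the methods, the authors aligned 69 base paired-end reads to mm10 with STAR (the submitters' processing notes also name HTSeq, without a role) and deposited raw counts per gene symbol beside FPKM. Annotation, strand setting and versions are not given in the sources used here, and the labels and the methods name different library kits. The authors' own columns of fold changes, p-values and adjusted p-values were not used. The deposited FPKM values served only for the gene length that they and the counts imply.

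The counts were scaled by TMM, filtered with filterByExpr (at least 10 counts in enough libraries, 15 in total) and fitted with edgeR 4.0.16 (glmQLFit and glmQLFTest) in R 4.3.3, with 4 group means over all 12 libraries and Benjamini-Hochberg adjustment over 14354 genes, called at an adjusted p under 0.1. The common biological coefficient of variation was 101%. SE is the absolute log2 fold change divided by the root of F. IP over input ratios are log2((IP CPM + 0.5)/(input CPM + 0.5)). The IP and input that share a sample number in the labels were taken to come from the same mouse. The deviations of the pairs from their group means correlated at 0.01 to 0.16 across genes, against a median of -0.00 between other animals. Correlations this low do not settle the pairing. No libraries agreed within sampling noise. The script was also run on simulated counts drawn independently for each library, without a pairing of animals. No result of that run is given here.

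Alternatives were DESeq2 1.42.0, the likelihood ratio test, scaling by RLE, all genes with a count in place of the filter, the animal as a block (limma 3.58.1 with duplicateCorrelation between diets, a fixed term otherwise), fits without Rn45s and Lars2, on the compared libraries only, at an adjusted p under 0.05, and without each animal. Fits are given for Aqp4, Gfap, Aldh1l1 and members at an unadjusted p under 0.05. Members and lists were chosen with earlier results of these data known. One further oligodendrocyte marker of the lists is not reported here, and the summed level and counts of that list leave it out. In RefSeq, 12 of the 37 genes overlap another annotated gene, Dio2 with Gm26512 among them, and how shared or multiply mapped reads were counted is not given, which bears on these and on the related metallothioneins. Promoters came from RefSeq (31 of 37 matched).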

Additional observations from a re-analysis of the deposited data

Results flagged for a closer look

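In 2 members the IP over input ratios lay on opposite sides of 0 in the diets. For Gja1 the mean log2 ratio in HFD less that in CFD was 2.25, with all 3 CFD animals below 0 and all 3 HFD animals above it. The interaction of diet and fraction, which tests this difference, had a log2 fold change of 2.31 with SE 0.82 and an adjusted p of 0.829 in edgeR, so it did not pass. The ratio of the HFD animal nearest to 0, 517, was 0.02. For Slc7a10 the difference was -1.70, with CFD animals above and HFD animals below 0 and an adjusted p of 0.959 for the interaction, at levels that went down to 0.165 CPM. The nearest ratio to 0 was 0.04, in CFD animal 555.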

How the results depend on the processing

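EdgeR's quasi-likelihood test called 8 genes for HFD against CFD in IP, 0 for HFD against CFD in input, 27 for IP against input in CFD, 2 in HFD, 337 over both diets and 0 for the interaction. With no filter on low counts these were 219, 3, 312, 79, 730 and 44, with 1 member for the diet in IP and 4 over both diets. The likelihood ratio test gave 227, 0, 277, 4, 779 and 37, with 1 member each in the same places. DESeq2 gave 770, 31, 816, 160, 996 and 121, and 5, 1, 1, 2, 3 and 0 members. Without Rn45s and Lars2 the diet in IP gave 5 and IP against input in HFD 0. On the compared libraries only, the diet in IP gave 3, and IP against input 14 in CFD and 0 in HFD. At an adjusted p under 0.05 the diet in IP gave 2, and IP against input 3 in CFD and 106 over both diets. With the animal as a replicate block the diet in IP gave 5, and IP against input 139 in CFD and 24 in HFD, and 3 members were called over both diets. The block changed no other call of a member. It turned the log2 fold changes of Aldh1l1 to -0.354 in HFD against CFD in IP and to -0.0761 over both diets, and that of Aqp4 to -0.0505 in CFD, all far from the threshold.

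Leaving out each animal in turn gave 1 to 20, 0 to 1, 2 to 52, 0 to 35, 7 to 430 and 0 to 1 genes in the same order, with 0 to 1 members for the diet in IP (Fam107a without animal 489) and 0 to 2 over both diets (Slc1a2 and Ndrg2 without 676, Slc1a2 without 489). The log2 fold change of Aldh1l1 then ran from -0.53 to 0.88 in HFD against CFD in IP, from -1.09 to 0.10 in CFD and from -0.26 to 0.58 over both diets, that of Aqp4 from -0.16 to 0.32 in HFD against CFD in input and from -0.37 to 0.62 in CFD, and that of Gfap from -0.438 to 0.0423 in HFD. The count of members with IP below input in 6 of 6 animals was 1 with RLE scaling, and the other counts of animals and of groups without overlap stayed within 1.5 times of those reported under the scalings and the larger prior tried. The median of all genes moved by less than 0.1 under the other scalings. The causes of these changes were not tested. With 3 animals a group, several members at low CPM had SE above 1 on the log2 scale, and differences of that size were not detectable for them.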
